A study of Bos taurus with 79 samples.

Results

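The insulin-like growth factor (IGF) family was followed in bovine endometrium through 10 genes, chosen as the ligands IGF1 and IGF2, the receptors IGF1R and IGF2R, and the binding proteins IGFBP1 to IGFBP6. All probe sets whose platform annotation gave one of these symbols alone were taken, which made 19 of the 24016 probe sets tested and 10 of the 9155 named genes. IGF1 and IGF2 had 4 probe sets each, and IGF1R, IGF2R and IGFBP3 had 2 each. IGFBP1, IGFBP2, IGFBP4, IGFBP5 and IGFBP6 had 1 each, so no second probe set could be set beside theirs. Where a gene had several, the probe set with the highest mean was used to represent it.

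IGF1 and IGF2 are secreted growth factors that act mainly through the tyrosine kinase receptor IGF1R, whereas IGF2R, which is also the mannose 6-phosphate receptor, takes up IGF2 for degradation. The binding proteins hold the ligands in tissue fluid and blood, lengthen their life and limit or deliver their access to the receptor, and some have effects on cells that need no ligand. In the ruminant uterus the family is studied because the conceptus, before it attaches, grows in fluid secreted by the endometrium, and IGFBP1 is known there as a product of the luminal epithelium.

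Endometrium came from cross-bred beef heifers whose estrus had been synchronized, and each of the 79 samples was hybridised to 1 Affymetrix bovine array. On each day there were 4 groups by status and progesterone: PH (pregnant, high progesterone), PN (pregnant, normal progesterone), CH (cyclic, high progesterone) and CN (cyclic, normal progesterone). Pregnant heifers had been inseminated and are labelled as found pregnant, and cyclic heifers served as controls. High progesterone came from a progesterone releasing intravaginal device (PRID) inserted on day 3 and left until slaughter on day 5, 7, 13 or 16. There were 16 groups with 5 arrays apiece, apart from 4 arrays in the CH group of day 7. Slaughter means that a heifer gave tissue on 1 day only, and the labels give no age or scan batch.

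Values are the deposited log2 expression values, which ran from 0.95 to 15.37, with array medians between 4.71 and 5.12. Of all probe sets, 32.2% had a mean under 3, which is treated here as the floor of the arrays. Tissue identity was checked with marker lists: all 7 stromal markers and 7 of 8 epithelial markers had a mean over 3, the exception being KRT8 with a mean of 2.23. The 6 trophoblast markers measured all had a mean under 3, with array means between 2.35 and 3.00. The 2 arrays CH 3 of day 7 and PH 1 of day 13 had a narrow distribution (SD under 2.7). The 3 arrays PH 4 of day 13, PN 4 of day 5 and PH 5 of day 7 had a mean of smooth muscle markers over 10, against a median of 7.78 over all arrays. The 5 arrays CH 3 of day 5, CN 5 and CH 3 of day 7, and PH 1 and PH 4 of day 13 lay far from their group mean (SD of their deviations over 0.45), and CH 3 of day 5 had a mean of leukocyte markers of 7.82. All these arrays stayed in the fit, and values without them are given where they bear on a member.

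Differences between days were first tested in CN heifers, which had neither a conceptus nor a device. The test was limma's moderated test over all 24016 probe sets with Benjamini-Hochberg adjustment, and all adjusted p values below are from limma. From day 7 to day 13, 4 of the 19 probe sets passed an adjusted p of 0.05. The 2 higher ones belonged to IGFBP1 and IGFBP2, and both lower ones to IGFBP3. Of all probe sets, 8.04% were called higher and 8.19% lower in that comparison, so a count of 2 of 19 in each direction was close to the background (16.2% in either direction). The median difference was -0.01 over the members and also -0.01 over all probe sets. From day 5 to day 7 and from day 13 to day 16, 0 of the 19 were called by limma in CN heifers, with 1 and 3 at an unadjusted p under 0.05; the background shares were 0.0291% and 0.666%.

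IGFBP1 (gene ID 282259) was at the floor of the arrays on days 5 and 7 and high on days 13 and 16 in all 4 groups. On day 5 the 20 arrays ranged from 2.25 to 2.98 with a median of 2.90. On day 7 the PH arrays had 2.89, 2.23, 2.94, 2.88 and 3.32, the PN arrays 2.94, 2.96, 2.91, 2.93 and 2.89, the CH arrays 2.89, 3.14, 2.93 and 2.86, and the CN arrays 2.97, 2.90, 2.89, 2.94 and 2.88. All of these lay at or near the floor, with PH 2 lowest and PH 5 highest. On day 13 the PH arrays had 9.77, 11.63, 10.48, 8.81 and 10.40, the PN arrays 10.66, 9.01, 10.74, 10.42 and 10.57, the CH arrays 10.42, 9.35, 8.00, 9.95 and 10.17, and the CN arrays 8.82, 10.40, 10.14, 11.64 and 7.62. On day 16 the PH arrays had 9.86, 9.54, 9.68, 11.35 and 9.33, the PN arrays 11.34, 11.36, 9.37, 11.36 and 9.98, the CH arrays 10.80, 8.88, 10.40, 8.08 and 8.14, and the CN arrays 10.70, 10.33, 9.98, 9.18 and 10.52. No array of the later days came near an array of the earlier days, and the 4 groups of a day overlapped. In CN, where 5.94% of all probe sets lay wholly higher on day 13 than on day 7, IGFBP1 was the only member to do so.

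The step of IGFBP1 from day 7 to day 13 was 7.37 ± 0.47 (log2 difference ± SE) in PH, 7.35 ± 0.47 in PN, 6.62 ± 0.49 in CH and 6.81 ± 0.47 in CN, with an adjusted p of 4.877e-18 in CN. Since the day 7 values lay at the floor, the true step may be larger by an amount that these arrays do not give. The mean over the 4 groups, a summary added after the data were seen, was 7.04 ± 0.24 (adjusted p = 5.565e-35). From day 13 to day 16 the same mean was 0.06 ± 0.23, with a 95% interval from -0.40 to 0.53, and from day 5 to day 7 it was 0.07 ± 0.24. The fit shares 1 spread per probe set over all groups, for IGFBP1 a pooled SD of 0.74. Its SDs within groups were 0.03 to 0.39 on days 5 and 7, and 0.60 to 1.54 on days 13 and 16. Its SEs are thus too wide among the early days and too narrow among the late days. IGFBP1 rose between days 7 and 13, and no call was made for the steps before and after. In whole tissue, more RNA per cell and more cells that express a gene cannot be told apart.

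The lowest IGFBP1 value among the 40 arrays of days 13 and 16 was 7.62, and the highest among the 39 arrays of days 5 and 7 was 3.32. That left an empty range of 4.30 on the log2 scale, wider than for any other of the 24016 probe sets (at most 1.55 among those wholly lower on the later days). In all, 0.387% of probe sets lay wholly higher on the later days and 0.192% wholly lower, and IGFBP1 was the only member among them. In the order of its 16 group means, IGFBP1 ran from 10.68 ± 0.94 (SD) in PN on day 16 down to 9.26 ± 1.27 in CH on day 16. After a drop of 6.31 it ran from 2.95 ± 0.13 in CH on day 7 to 2.76 ± 0.28 in PH on day 5. This drop separated the days, and no other neighbouring pair of groups in the order was free of overlap.

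**Figure D1:**
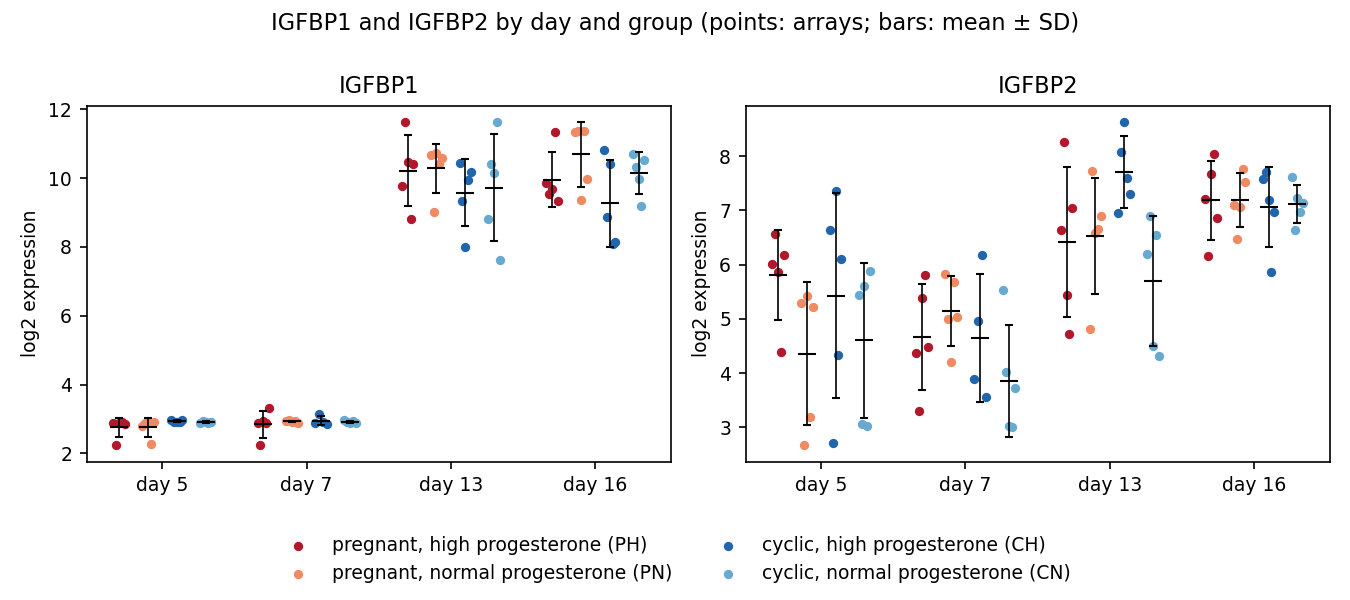
IGFBP1 and IGFBP2 log2 expression by day (horizontal axis) and group. Each point is 1 array, and bars are the mean ± SD of 4 or 5 arrays. IGFBP1 lies at or under 3.32 on days 5 and 7 and at or over 7.62 on days 13 and 16, while IGFBP2 is spread over several log2 units within groups on days 5, 7 and 13.

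The plot of IGFBP1 and IGFBP2 shows how differently these binding proteins behaved. IGFBP2 is a binding protein with a preference for IGF2. On day 5 it had 6.01, 6.57, 5.87, 4.40 and 6.18 in PH, 5.30, 2.67, 5.42, 3.20 and 5.22 in PN, 6.65, 2.71, 7.36, 4.33 and 6.11 in CH, and 5.45, 3.07, 5.60, 3.03 and 5.89 in CN. On day 7 it had 4.38, 3.30, 5.38, 5.81 and 4.48 in PH, 5.83, 4.99, 4.21, 5.68 and 5.04 in PN, 3.90, 4.96, 6.17 and 3.57 in CH, and 5.53, 4.01, 3.02, 3.01 and 3.73 in CN. On these early days PN 2 and CH 2 of day 5 lay under 3, and the lowest value of day 7 was 3.01, in CN. On day 13 it had 6.63, 8.27, 5.44, 4.72 and 7.04 in PH, 4.81, 7.73, 6.59, 6.66 and 6.89 in PN, 6.95, 8.08, 8.64, 7.59 and 7.30 in CH, and 6.20, 6.90, 4.50, 6.56 and 4.32 in CN. By day 16 the spread had narrowed: the 20 arrays lay between 5.87 and 8.04, with a median of 7.16 and an SD of 0.55, against an SD of 1.26 on day 13.

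In CN heifers IGFBP2 averaged 5.69 ± 1.20 on day 13 and 3.86 ± 1.03 on day 7, a step of 1.83 ± 0.67 with an adjusted p of 0.04813. That call was close to the threshold and was lost when any 1 of 7 arrays was left out (CN 2, 3, 4 or 5 of day 7, or CN 1, 2 or 4 of day 13), with adjusted p values up to 0.1531. It was also lost by a little after quantile normalization (adjusted p = 0.05048), without the narrow arrays (0.05051) and without the arrays far from their group mean (0.06216). The step was 1.75 ± 0.67 in PH (adjusted p = 0.06889), 1.39 ± 0.67 in PN (0.1596) and 3.06 ± 0.71 in CH (0.000796). Among the 4 groups, the arrays of day 13 lay wholly above those of day 7 in CH alone, where 9.28% of all probe sets did so. The mean over the 4 groups was 2.01 ± 0.34 (adjusted p = 1.131e-06), and the next step, from day 13 to day 16, was 0.55 ± 0.33 (0.4082).

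IGFBP3, the main carrier of IGFs in blood, went the other way on both of its probe sets. On the first, with the higher mean, the day 13 values were 7.11, 7.91, 7.63, 8.54 and 6.87 in PH, 8.22, 7.66, 8.28, 7.30 and 8.42 in PN, 8.04, 7.72, 8.56, 8.35 and 7.68 in CH, and 6.69, 7.59, 7.73, 7.80 and 7.16 in CN. On day 7 they were 8.82, 8.72, 8.35, 9.09 and 7.98 in PH, 9.23, 8.94, 8.87, 7.85 and 9.31 in PN, 8.50, 8.42, 8.20 and 9.16 in CH, and 8.15, 8.57, 8.42, 9.09 and 8.54 in CN. All 5 CN arrays of day 13 lay below all 5 of day 7, as 5.54% of all probe sets did, and in the other groups the days overlapped. On the second probe set the CN arrays had 6.37, 6.96, 7.22, 7.34 and 6.54 on day 13, against 7.82, 8.15, 7.99, 8.59 and 8.15 on day 7, again without overlap.

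In CN heifers IGFBP3 fell by 1.16 ± 0.31 on the first probe set (adjusted p = 0.0053) and by 1.25 ± 0.31 on the second (adjusted p = 0.002418). In PH it fell by 0.98 (adjusted p = 0.02521) and 0.91 (0.04192). In PN the first probe set fell by 0.87 (0.04362), while the second had a difference of -0.79 that was not called (0.07359). In CH the differences were -0.50 (0.2561) and -0.22 (0.643) and neither was called. Counted over all members, 3 of 19 probe sets were called in PH, 4 in PN and 4 in CH, against 13.7%, 18.4% and 26.6% of all probe sets. Whether the step of IGFBP3 differs between these groups was not tested. The mean over the 4 groups was -0.88 ± 0.16 and -0.79 ± 0.16 on the 2 probe sets (adjusted p = 5.491e-06 and 3.417e-05). From day 13 to day 16 IGFBP3 in CN differed by 0.89 ± 0.31 and 0.85 ± 0.31, neither called after adjustment (0.2583 and 0.3073), although all CN arrays of day 16 lay above all of day 13 on the first probe set; 1.39% of all probe sets lay wholly higher in that comparison.

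Among the other binding proteins, IGFBP4, a carrier that mostly restrains IGF action, had daily means of 8.74, 8.44, 8.36 and 8.46 and no called difference. In PH its 5 arrays of day 7 lay wholly below those of day 5, where 5.15% of all probe sets did so. IGFBP6, which binds IGF2 by preference, had daily means of 11.79, 11.39, 11.12 and 11.22. Its arrays ran from 10.39 through a median of 11.36 to 12.37 on day 7, and from 10.95 through a median of 11.79 to 12.83 on day 5, with wide overlap. Over the 4 groups IGFBP6 fell by 0.42 ± 0.15 from day 5 to day 7 (adjusted p = 0.03669), and its step from day 7 to day 13 was -0.25 ± 0.15 (0.2104). It was the only member called from day 5 to day 7 over the 4 groups, a comparison in which 20.7% of all probe sets were called. From day 13 to day 16 the same summary called no member, with 1 at an unadjusted p under 0.05, against 8.65% of all probe sets. From day 7 to day 13 that summary called 7 of the 19 probe sets, 2 higher and 5 lower, against 18.8% and 18.1% of all probe sets (36.9% in either direction).

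IGFBP5, a binding protein that also binds extracellular matrix, was at the floor on 74 of 79 arrays. The 5 arrays over 3 were PH 4 of day 13 with 7.17, PN 4 of day 5 with 5.05, PH 5 of day 7 with 4.33, CH 3 of day 7 with 3.33 and PH 3 of day 13 with 3.05. The first 3 of these are the 3 arrays with a smooth muscle marker mean over 10, at 12.86, 11.87 and 11.43 in the same order. CH 3, with a muscle mean of 7.28, is a narrow array, and PH 3 had a muscle mean of 7.73, near the median of all arrays.

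The largest pregnancy difference of IGFBP5, 0.70 ± 0.31 on day 13 (adjusted p = 0.9917), came to 0.23 ± 0.10 without the 3 arrays. The part of muscle tissue in these values was otherwise not tested.

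**Figure D2:**
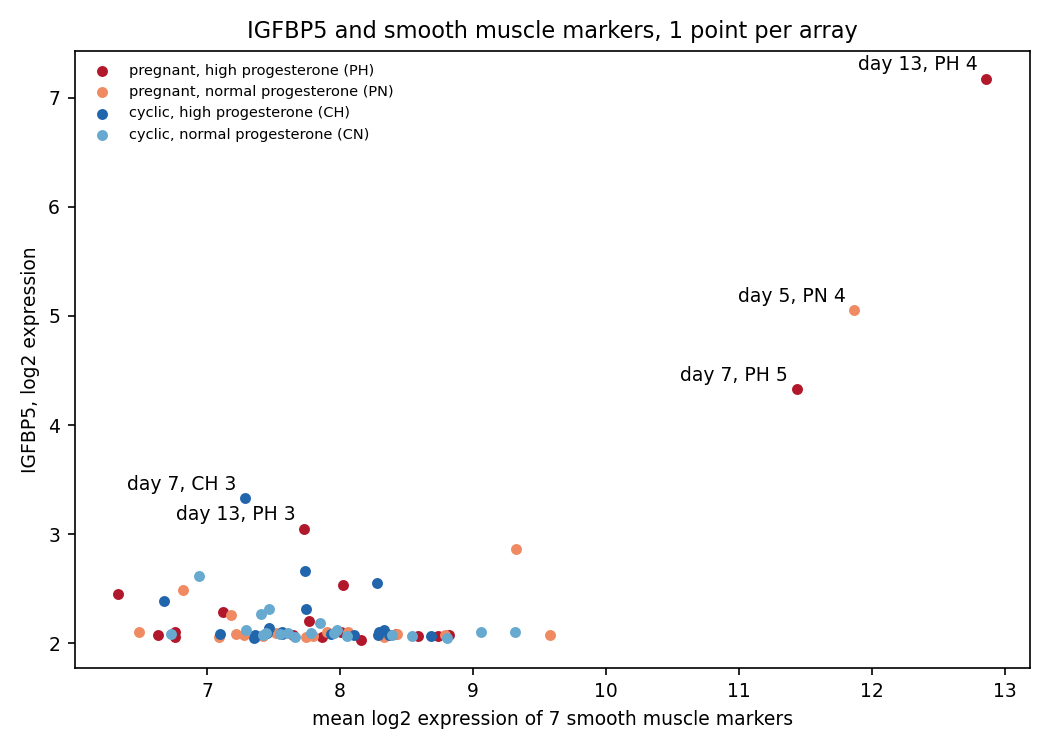
IGFBP5 log2 expression (vertical axis) against the mean log2 expression of 7 smooth muscle markers (horizontal axis), 1 point per array for all 79 arrays. The 3 arrays with a marker mean over 10 have the 3 highest IGFBP5 values, 4.33 to 7.17, and 74 of the arrays have IGFBP5 under 3.

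The plot of IGFBP5 against muscle markers shows 3 arrays apart from the rest, so no correlation is given. Some other marker lists moved with the days: the endothelial list had group means from 4.72 to 4.91 on days 5 and 7 and from 5.08 to 5.42 on days 13 and 16. The epithelial list overlapped, with group means from 8.27 to 8.72 on the early days and from 8.43 to 8.82 on the late days. The liver list, which holds markers of another tissue, had group means from 6.63 to 7.13 on the early days and from 7.36 to 7.85 on the late days. Group means of the stromal list ran from 11.02 to 11.17 on day 5 and from 10.78 to 10.93 on day 7, the interval in which IGFBP6 fell. Those of the smooth muscle list ran from 8.28 to 9.26 on day 5 and from 7.49 to 8.57 on day 7. On day 13 they ran from 7.23 to 8.50, and on day 16 from 7.09 to 8.02. The part of these lists in the steps of IGFBP1, IGFBP2, IGFBP3, IGFBP6 and IGF1 was not tested.

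**Figure D3:**
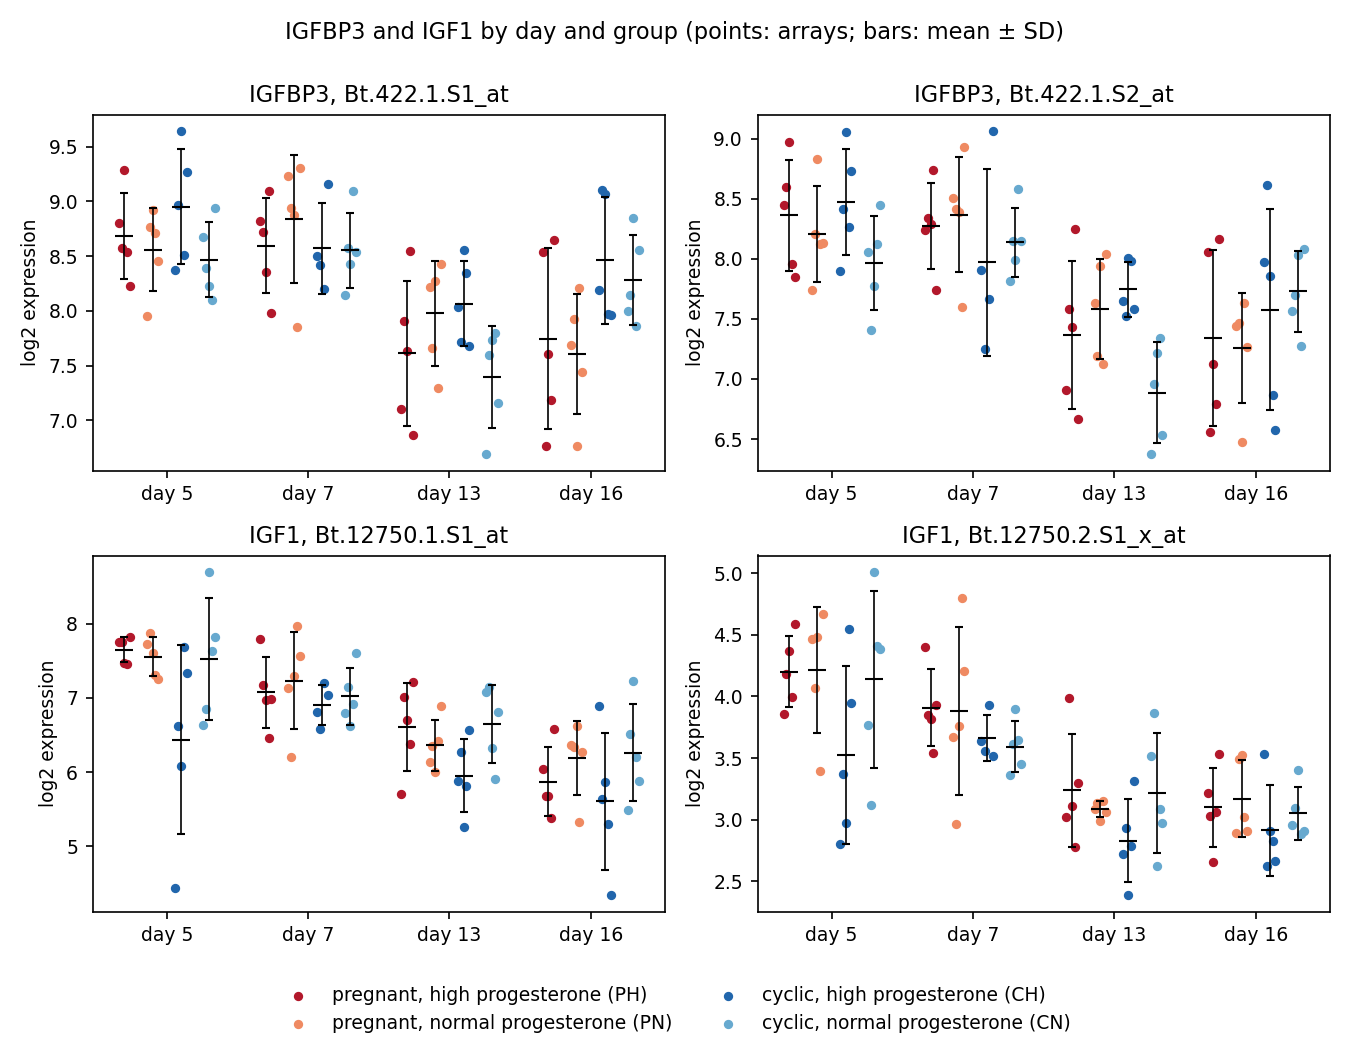
Log2 expression of both IGFBP3 probe sets and of the leading IGF1 probe sets by day and group. Each point is 1 array, and bars are the mean ± SD of 4 or 5 arrays. IGFBP3 is lowest in CN on day 13, and IGF1 is lower on days 13 and 16 than on days 5 and 7, with overlap between arrays.

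The plots of IGFBP3 and IGF1 show changes far smaller than that of IGFBP1. IGF1, a growth factor made by uterine stroma, averaged 7.29 ± 0.88 on day 5, 7.07 ± 0.45 on day 7, 6.39 ± 0.54 on day 13 and 5.98 ± 0.66 on day 16 on its leading probe set (SD over the 20, 19, 20 and 20 arrays). The lowest day 5 value, 4.44, came from CH 1, and the other arrays of that day had at least 6.08. On day 13 IGF1 had 5.71, 7.02, 6.70, 6.38 and 7.21 in PH, 6.14, 6.34, 6.00, 6.42 and 6.90 in PN, 5.87, 6.26, 5.25, 5.81 and 6.56 in CH, and 7.08, 7.15, 6.33, 5.91 and 6.81 in CN. On day 7 it had 7.79, 7.18, 6.98, 6.45 and 6.98 in PH, 7.13, 6.20, 7.29, 7.97 and 7.56 in PN, 6.81, 6.59, 7.20 and 7.04 in CH, and 6.80, 7.15, 6.62, 6.92 and 7.61 in CN. The days overlapped in PH, PN and CN, and did not in CH. In CN heifers, IGF1 differed by -0.37 ± 0.39 from day 7 to day 13 (adjusted p = 0.7044). The mean over the 4 groups, which draws on all arrays of both days, was -0.67 ± 0.20 (adjusted p = 0.004404).

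Of the other IGF1 probe sets, a pair had mean differences of -0.67 ± 0.14 (4.829e-05) and -0.52 ± 0.16 (0.009) over the 4 groups, and the fourth, at the floor on 75 of 79 arrays, had 0.02. Both of the pair lay near the floor on day 13, with means of 3.09 and 2.93, and were under 3 on 21 and 33 of the 79 arrays. Thus 3 of 4 IGF1 probe sets fell between days 7 and 13 over all groups together, although none was called in CN alone. The leading probe set was called in no group taken alone. Calls in single groups were confined to the pair near the floor, in CH and PN, where 26.6% and 18.4% of all probe sets were called. In CH, all day 13 arrays lay below all day 7 arrays on 2 IGF1 probe sets; 6.09% of all probe sets lay wholly lower there.

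IGF2, the ligand best known for its role in fetal growth, gave no called difference in CN. Its leading probe set had means of 8.25, 8.27, 8.37 and 8.33 on days 5, 7, 13 and 16, with SDs between 0.48 and 0.52. In CN it averaged 8.66 ± 0.45 on day 13 and 8.01 ± 0.20 on day 7, a difference of 0.65 ± 0.30 (adjusted p = 0.1497, and 0.02455 with array weights), and over the 4 groups the difference was 0.11 ± 0.15. The second IGF2 probe set had daily means of 7.81, 7.85, 7.73 and 8.01, and its difference from day 7 to day 13 over the 4 groups was -0.13 ± 0.18 (adjusted p = 0.6276), opposite in sign to that of the first; neither was called. The other pair lay at the floor. One of that pair was called higher by 0.12 from day 5 to day 7 in CH, a comparison in which 15.2% of all probe sets were called. Its day 7 CH values were 1.79, 2.35, 1.81 and 1.79, and the high one belongs to CH 3, the narrow array.

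Of the receptors, IGF1R was at the floor on both probe sets, with all 79 arrays under 3, so changes of IGF1R were not detectable on these arrays. IGF2R was measured well above the floor, with daily means of 8.82, 8.92, 8.84 and 8.78 on its leading probe set and SDs between 0.20 and 0.34. Its step from day 7 to day 13 over the 4 groups was -0.08 ± 0.09, with a 95% interval from -0.26 to 0.10. The second IGF2R probe set gave -0.25 ± 0.16. No day comparison called either.

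**Figure D4:**
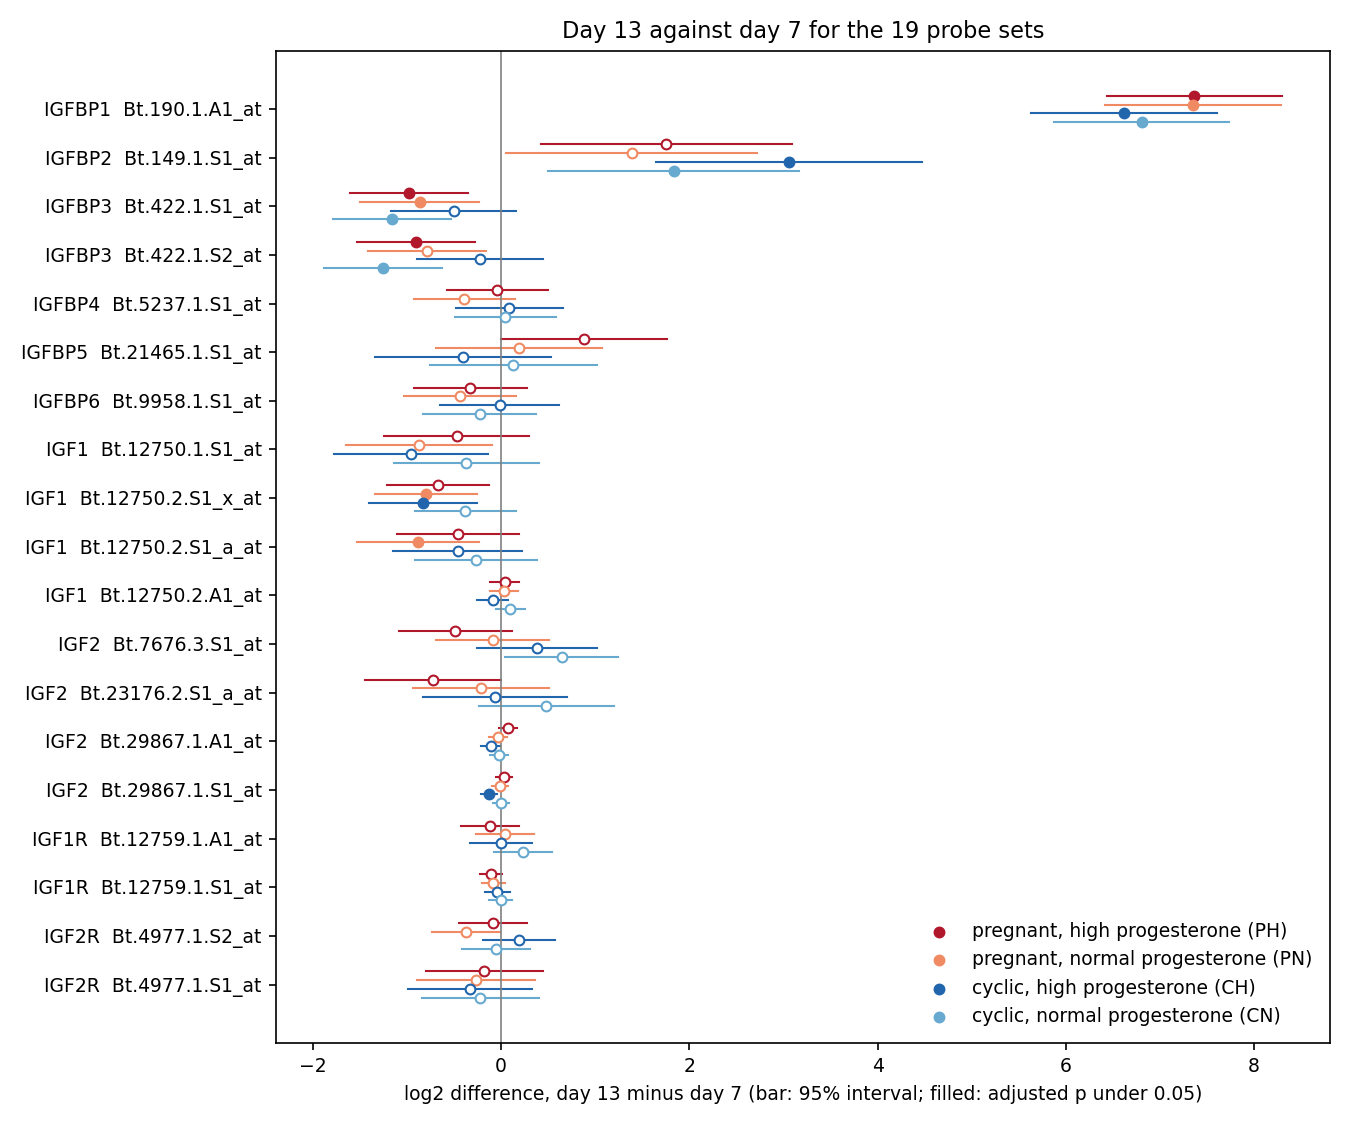
Log2 difference between day 13 and day 7 (horizontal axis, day 13 minus day 7) for each of the 19 probe sets in each group. Points are the differences, bars their 95% intervals, and filled points have an adjusted p under 0.05. IGFBP1 lies between 6.62 and 7.37 in the 4 groups, and all other members lie between -1.25 and 3.06.

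The plot of the step by probe set shows that the 4 groups gave IGFBP1 steps with overlapping intervals, while the calls for IGFBP2 and IGFBP3 varied between groups.

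The effect of progesterone, high minus normal and averaged over pregnant and cyclic heifers, was tested on each day. None of the 19 probe sets was called by limma on any day, with 3, 1, 2 and 2 at an unadjusted p under 0.05 on days 5, 7, 13 and 16. The shares of all probe sets called were 0.908%, 4.7%, 0.441% and 0.0958%. IGFBP1 gave differences of 0.01 ± 0.33 on day 5, -0.02 ± 0.34 on day 7, -0.10 ± 0.33 on day 13 and -0.81 ± 0.33 on day 16. On the last day it averaged 9.61 with high and 10.41 with normal progesterone (adjusted p = 0.3535, unadjusted 0.01698). Because the fit shares its spread with the early days, the SEs and p values of IGFBP1 on days 13 and 16 are too small. The difference on day 16 was -0.73 in pregnant and -0.88 in cyclic heifers, and high and normal progesterone arrays overlapped.

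On day 7, when the device had been in place since day 3, IGFBP1 was still at the floor with high progesterone: the 9 PH and CH arrays had at most 3.32, against at most 2.97 on the 10 PN and CN arrays. IGFBP2 had the largest positive progesterone differences, 1.13 ± 0.47 on day 5 (adjusted p = 0.3175) and 0.95 ± 0.47 on day 13 (0.721), with 0.15 on day 7 and -0.03 on day 16. Intervals for IGFBP2 were wide, from 0.19 to 2.08 on day 5, and a missed threshold does not show that the groups were alike. The other leading probe sets had progesterone differences between -0.50 (IGF1 on day 5) and 0.52 (IGFBP5 on day 13). Without the arrays of high smooth muscle markers, that of IGFBP5 on day 13 came to 0.05 ± 0.10. The second IGF2 probe set had 0.62 ± 0.26 on day 7 (0.1786).

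The effect of pregnancy, pregnant minus cyclic and averaged over progesterone, also called 0 of the 19 on each day, with 2 at an unadjusted p under 0.05 on each. The background shares were 0.0167% on day 5, 0 on days 7 and 13, and 3.16% on day 16. IGFBP3 on day 16 came closest to the threshold. Its first probe set had 8.53, 6.77, 7.61, 7.18 and 8.64 in PH and 7.69, 7.92, 6.76, 8.21 and 7.45 in PN, against 8.19, 9.11, 9.07, 7.97 and 7.97 in CH and 8.00, 8.14, 8.84, 7.86 and 8.56 in CN. The mean was 7.68 in pregnant and 8.37 in cyclic heifers, with overlap.

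That difference for IGFBP3 was -0.70 ± 0.22 (adjusted p = 0.07168). It was -0.71 at high and -0.68 at normal progesterone, and the second IGFBP3 probe set gave -0.36 ± 0.22 (0.552). The first probe set passed the threshold without PH 1 of that day (-0.79, adjusted p = 0.03552) and without PH 5 (-0.81, 0.01825). PH 1 and PH 5 held the highest PH values, so leaving out either one had to make the difference more negative. Those gains are not evidence of a pregnancy difference. It also passed among probe sets above the median level only (0.04521) and with array weights (0.03876), which called 15.3% of all probe sets there. IGFBP1 was 0.60 ± 0.33 higher with pregnancy on day 13 and 0.61 ± 0.33 higher on day 16, neither called (0.9917 and 0.4266). The remaining leading probe sets had pregnancy differences between -0.38 (IGF2 on day 16) and 0.70 (IGFBP5 on day 13).

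**Figure D5:**
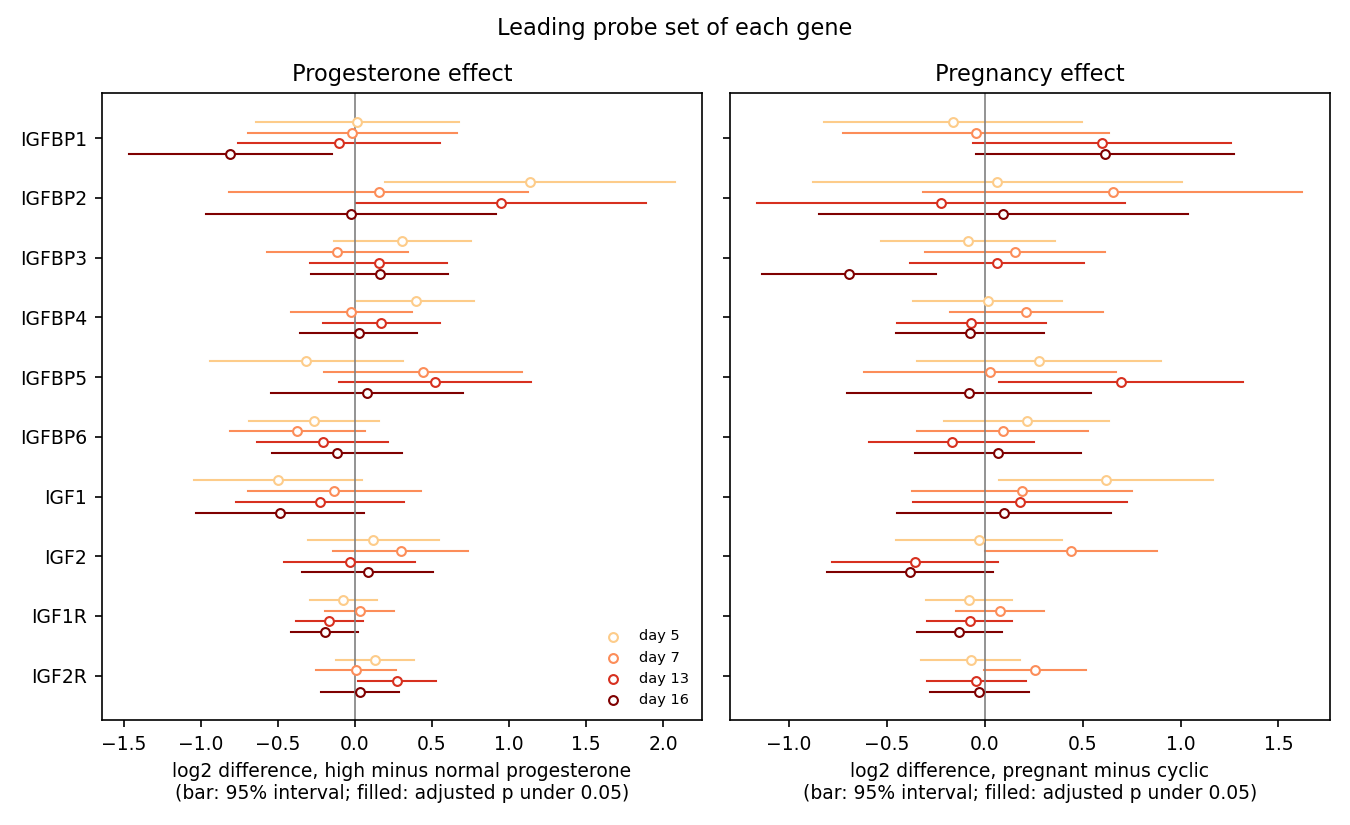
Progesterone effect (high minus normal, left panel) and pregnancy effect (right, pregnant minus cyclic) on the leading probe set of each gene, in log2 units by day. Points are differences and bars their 95% intervals. No point is filled, since none had an adjusted p under 0.05, and the values farthest from 0 are IGFBP2 at 1.13 on day 5 for progesterone, and IGFBP5 at 0.70 on day 13 and IGFBP3 at -0.70 on day 16 for pregnancy.

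The plot of both effects shows differences of at most 1.13 log2 units in size, each a mean over arms. The step of IGFBP1 from day 7 to day 13 reached 7.37, in PH alone, and no other member exceeded 3.06 in any group. Means over arms and steps in 1 group are not directly comparable in size. The interaction of progesterone and pregnancy called 0 of the 19 on each day, with 2, 2, 4 and 1 at an unadjusted p under 0.05, and background shares of 0, 0.025%, 0.0208% and 0.87%. Its largest member value was IGFBP2 on day 13, -2.13 ± 0.94 (adjusted p = 0.4115): there IGFBP2 averaged 6.42 ± 1.39 in PH and 6.54 ± 1.07 in PN, against 7.71 ± 0.66 in CH and 5.69 ± 1.20 in CN. Changes of the progesterone effect or of the pregnancy effect between successive days also called 0 of the 19 in each of 6 comparisons, with at most 1 at an unadjusted p under 0.05. The background shares were 0.82%, 1.44% and 0.0291% for progesterone and 0.00416%, 0 and 0.974% for pregnancy.

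Other genes of the IGF system were followed as a list of carriers, binding protein proteases, receptors, adaptors, members of the lipid kinase pathway and regulators, of which 32 of 53 were measured. From day 7 to day 13 in CN, 4 of the 32 were called higher and 4 lower, against 8.04% and 8.19% of all probe sets (16.2% in either direction), with a median difference of 0.08 against -0.01 over all probe sets. The higher ones were FOXO4, a transcription factor that AKT kinases keep out of the nucleus (2.15 ± 0.30, with a day 7 mean of 3.03 near the floor), PIK3IP1, an inhibitor of phosphoinositide 3-kinase (1.96 ± 0.27), the adaptor GAB1 (1.13 ± 0.19) and TSC1, a brake on mTOR signalling (1.05 ± 0.21). The lower ones were EIF4EBP1, a repressor of translation that mTOR inactivates (-1.32 ± 0.25), the kinase subunit PIK3R2 (-0.89 ± 0.22), SOCS2, which restrains growth hormone signalling (-0.71 ± 0.20), and the kinase AKT1 (-0.51 ± 0.11). The calls for TSC1 and SOCS2 were not shared by every group, as given with the other settings in the closing part. The mean over the 4 groups called 8 higher and 6 lower (36.9% of all probe sets), among them STC1 (1.20 ± 0.25) and ADAM12 (-1.34 ± 0.20), not called in CN. From day 5 to day 7 that mean called 6 higher and 6 lower (20.7% of all probe sets), among them INSR (1.41 ± 0.30) and GHR (-0.78 ± 0.22). From day 13 to day 16 it called 2, both lower (8.65%).

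Of these 32 genes, 3 were called for progesterone on day 7 and 1 on day 5, where 4.7% and 0.908% of all probe sets were called. On day 7 FOXO4 averaged 4.04 with high and 3.18 with normal progesterone, a rise of 0.86 ± 0.22 (adjusted p = 0.009981), and TSC1 rose by 0.55 ± 0.16 (0.02438). EIF4EBP1 fell by 0.75 ± 0.18 on day 7 (0.007512) and by 0.72 ± 0.18 on day 5 (0.02462). On day 7 the difference of FOXO4 was 0.63 in pregnant (adjusted p = 0.5406) and 1.08 in cyclic heifers (0.04028), that of TSC1 was 0.20 (0.8249) and 0.90 (0.01648), and that of EIF4EBP1 was -0.49 (0.6073) and -1.001 (0.02388). All 3 were thus called in cyclic heifers alone and none in pregnant heifers alone. Over all 24016 probe sets, 6610 had an unadjusted p under 0.05 in cyclic heifers alone and 2028 in pregnant heifers alone. The split between the arms was thus not particular to these genes. The interaction on day 7 called none of them (adjusted p = 0.6324, 0.2059 and 0.4885 in the same order). The day 5 call of EIF4EBP1 was lost when 1 of CN 3, CN 5, CH 3, PN 2 or PH 3 was left out, and the day 7 call of TSC1 without CN 5, CH 5 or PH 3. Without the arrays far from their group mean, the day 7 calls of FOXO4 (0.07587), TSC1 (0.1023) and EIF4EBP1 (0.06202) were all lost. The progesterone comparison on day 7 and the step from day 7 to day 13 share the CN arrays of day 7, so a shared sign between them is not independent. The interaction on day 16 called PIK3IP1 (1.91 ± 0.39, adjusted p = 0.01543), a call that was lost without CH 3 (0.06423) and in a fit of day 16 alone (0.1398). Averaged over progesterone, no pregnancy comparison called any of the 32. At high progesterone alone, pregnancy called 1 lower on day 7 and 2 higher on day 16. In cyclic heifers alone, progesterone called 2 lower on day 16. Of 24016 probe sets, 5441, 4917 and 4840 had an unadjusted p under 0.05 there, in the same order. That threshold is looser than the one behind these calls, and the shares called after adjustment are not given here. The counts are therefore not read as a result about the listed genes.

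The genes with group means most like those of a member were found by Pearson's r over the 16 group means among 8939 genes, as a description only. For IGFBP1 they were MEP1B (r = 0.9935), a membrane metalloprotease, APOBEC3Z2 (0.9932), a cytidine deaminase, MYL3 (0.9924), a myosin light chain, and SLC39A2 (0.9914), a zinc transporter. Their group means spanned 6.98, 2.77, 4.89 and 8.99 log2 units in the same order, against 7.93 for IGFBP1. Their lowest group means were 2.38, 6.81, 2.53 and 2.20, so that of APOBEC3Z2 lay well above the floor. For IGFBP2 they were NOA1A, BCAS1, PDHA1 and VAT1, with r from 0.9393 to 0.9626. For IGF1 they were BDH2, LNX2, BMP4 and RCN2, with r from 0.9137 to 0.92. All these points share the same arrays and days.

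Some members are neighbours in the genome. In the cattle assembly ARS-UCD2.0, IGFBP3 and IGFBP1 are adjacent protein-coding genes, and so are IGFBP2 and IGFBP5. The adjacent IGFBP1 and IGFBP3 changed in opposite directions between days 7 and 13, by 6.81 and -1.16 in CN. Of the other pair, IGFBP2 was called higher and IGFBP5 lay at the floor.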

How the data were processed

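The deposited log2 expression values of 79 endometrial arrays, 1 per heifer, were used as they stood. The submitters' processing notes name limma, GCRMA and RMA with neither version nor role, so the method behind the deposited log2 values is not known. Of 24128 probe sets 112 Affymetrix controls were left out. Symbols came from the platform annotation, and 13263 gene identifiers matched the RefSeq cattle gene table (ARS-UCD2.0), with 0 symbols altered.

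Group means were fitted with limma 3.58.1 in R 4.3.3 over 16 groups (63 residual and 1.49 prior degrees of freedom), and 21 comparisons were drawn, each adjusted by Benjamini-Hochberg over 24016 probe sets. The labels call arrays biological replicates, and the number of arrays limits the precision. The fit was tested on simulated data with normal noise and 1 spread per probe set over all groups. IGFBP1 did not have such an even spread, so that test does not bear on its SEs and p values. Replicate numbers were not used as pairs: same-numbered arrays had mean correlations of deviations of 0.0294, 0.0467, 0.0228 and -0.0092 on days 5, 7, 13 and 16. These means were below 0.1, while the highest single pairs had 0.1976, 0.3244, 0.2278 and 0.3363 in the same order. All members were named. Called genes of the further IGF system list were named in full for some comparisons, and in part or not at all for others. The 4 genes of highest Pearson r were named for the 3 members whose group means ranged most. The members, lists, tests and array omissions were chosen with earlier results of these data known. Sequences were not used here.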

Additional observations from a re-analysis of the deposited data

Results flagged for a closer look

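In 18 of 160 combinations of leading probe set, day and group, 1 array lay apart from the other arrays of its group by Dixon's criterion, where chance alone gives about 1 in 20. IGFBP5 held 7 of these. It had 5.05 in PN 4 on day 5, 2.26 in PN 2 and 4.33 in PH 5 on day 7, and 7.17 in PH 4, 2.38 in CH 4 and 2.61 in CN 1 on day 13, and 2.45 in PH 4 on day 16. The 3 highest are the arrays with smooth muscle markers over 10, and the others lie under 3 among values at the floor.

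IGFBP1 had 2.28 in PN 4 and 2.25 in PH 2 on day 5, below floor values near 2.9, 9.01 in PN 2 on day 13 and 11.35 in PH 4 on day 16. IGF1R, at the floor throughout, had 2.78 in CN 1 on day 5, 2.68 in PN 4 on day 13 and 1.84 in PH 3 on day 16. IGFBP4 had 7.43 in PN 4 on day 13. On day 16 PN 4 was low for both IGFBP6, at 10.69, and IGF1, at 5.32. IGF2 had 8.97 in CH 1 on day 5.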

How the results depend on the processing

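Counts of members called were compared over 250 combinations of comparison and setting (days fitted alone, scaling, level filter, moderation, array weights, replicate block, arms or groups taken alone, omitted arrays), and 242 stayed within 1.5 times the count reported. Array weights called 4 members for progesterone on day 16 (among them IGFBP1, -0.88, adjusted p = 0.03929), 2 for pregnancy on day 16, 4 for the interaction on day 13 and 2 for that on day 16, where the reported counts were 0; of all probe sets, weights called 23.9%, 15.3%, 6.42% and 13.7% there. The filter to probe sets above the median level called 1, IGFBP3, for pregnancy on day 16. For the step from day 5 to day 7, CH heifers and the mean over the 4 groups each called 1, against 0 in CN. For the step from day 7 to day 13 the mean over the 4 groups called 7, against 4 in CN. That summary draws on more arrays and on other groups than CN, and the cause of these changes in count was not tested. Of 503 omissions of 1 array, 499 stayed within 1.5 times. Both tallies say little about stability. The reported count was 0 in all comparisons but the step from day 7 to day 13, so most agreement is 0 against 0. In that step the loss of 1 of 4 calls, as of IGFBP2 in 7 omissions, also stays within 1.5 times. The exceptions ranged from 0 to 1 for pregnancy on day 16, with IGFBP3 called without PH 1 or PH 5, and from 0 to 2 for the interaction on day 7, where a pair of IGF2 probe sets at the floor was called without CH 2 or CH 5.

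The step of IGFBP1 lay between 6.62 and 7.37 over all other settings and between 6.33 and 7.33 over omissions of 1 array, always called. IGFBP1, IGFBP2 and IGFBP3 kept their signs under quantile normalization and median centring. In the list of other genes, SOCS2 reversed in CH to 0.11 (adjusted p = 0.7304), and TSC1 from day 7 to day 13 was not called in CH (0.31) or PH (0.54). The progesterone call of FOXO4 on day 7 was lost with array weights (adjusted p = 0.05207), and that of EIF4EBP1 likewise (0.08628); in fits of 1 day, TSC1 on day 7 (0.2017) and EIF4EBP1 on day 5 (0.2522) were not called. The replicate block left the count of members at 4 for the step from day 7 to day 13 and at 0 in the other 20 comparisons. The exact permutation test was planned for called members of the progesterone and pregnancy comparisons, of which there were none.

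Values at the floor limit IGF1R, IGFBP5, 2 of 4 IGF2 probe sets and the early days of IGFBP1. Without a second probe set, IGFBP1 and IGFBP2 have no check within the array. Days and any unrecorded batch of arrays cannot be told apart.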
